A study of Mus musculus with 9 samples.

Results

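The genes described here encode collagens, laminins and the proteins that stand beside them in the meninges and in basement membranes: Bgn, Lum, Dcn, Ogn, Fmod, Fn1, Nid1, Nid2, Hspg2 and Sparc. They were chosen by name, as symbols of the form Col or Lam followed by a chain number together with those 10 genes, and by level, as at least 0.5 RPKM (reads per kilobase of transcript and per 1e6 reads) in at least 3 of 9 libraries. Of 66 such names in the reference gene table, 50 were in the deposited table of 14831 genes and 47 passed the level rule; the other 16, Lama1 among them, were not analysed here. The 3 names below the rule were Lamc3, at 0.595 and 0.572 RPKM in 2 saline libraries, Col8a2, at 0.557 and 0.51 in 2 libraries, and Col22a1, at 0.501 in 1 library. Lum stood just inside it, with 4 libraries at 0.5 RPKM or more, 3 of them saline libraries, so that it passed mainly through the group where it was high. Col4a3bp fits the name rule but encodes the ceramide transfer protein, a lipid carrier and no collagen; its values are given separately.

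Spinal cords were taken from female C57Bl/6 mice, wild-type and 10 weeks old, whose right lateral ventricle had been injected 2 weeks before. The 3 saline libraries came from mice given 10 µl of saline, the 3 control ASO libraries from mice given 500 µg of a control antisense oligonucleotide (number 456835), and the 3 C9orf72 ASO libraries from mice given 500 µg of an oligonucleotide against mouse C9orf72 (number 571883). An antisense oligonucleotide (ASO) is a short modified nucleic acid strand that pairs with an RNA and can lower its level; both were given in the same volume. The label of control ASO replicate 3 gives no strain tag, and since no label states that a group's libraries are separate animals, p-values measure only the spread between these samples.

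The fibrillar collagen and the basement membranes of the spinal cord lie mostly at its borders and along its vessels. Fibroblasts of the meninges and of the vessel walls lay down fibrillar collagens, which small leucine-rich proteoglycans such as biglycan and decorin coat and space. Endothelial cells, pericytes and astrocyte endfeet share a basement membrane, a thin sheet built from a collagen IV network and a laminin network that nidogens and the heparan sulfate proteoglycan perlecan hold together. The parenchyma itself holds little fibrillar collagen.

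Depth was 90.5 to 123.9 M reads (M, 1e6) per library, as estimated from the step between low values, and 0.5 RPKM corresponded to 45.3 to 61.9 reads on each kilobase. Each value under 0.5 RPKM stands at 0.1 in the table, called the floor below. C9orf72, the target, was at 2.68, 3.40 and 3.12 RPKM in the C9orf72 ASO libraries and at 10.5 to 11.7 RPKM in the other 6. Hox genes of spinal position were present for 6 of 7 names, with Hoxb8 at 116 to 154 RPKM. Skeletal muscle markers were in the table for 2 of 10 names and markers of bone and cartilage for 4 of 12. Saline replicate 1 stood apart: it was the highest of the 9 libraries for 32 of 47 matrix genes (68.1%), against 23.8% of all genes tested. C9orf72 ASO replicate 2 was the lowest for 19 of the 42 matrix genes at the floor in no library (45.2%), against 15.2% of all such genes. The red cell genes summed to 2921 RPKM in control ASO replicate 1 and to 724 to 1264 RPKM in the other 8 libraries.

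The promoters of 4 genes that the comparisons turn on are shown first, because Col4a1 and Col4a2, the paired genes of the main collagen IV trimer, are read in opposite directions from 1 stretch of DNA. Each line is the RefSeq window of build GRCm38.p6 from 250 bases before to 50 bases after the annotated start, 5′ to 3′ on the gene's strand. Capitals mark the GC box that SP factors bind, searched as GGGCGG and, for the opposite strand, as CCGCCC. They also mark the CCAAT box, searched as CCAAT and, for the opposite strand, as ATTGG. The windows lie at chr8:11312777-11313076 on the minus strand for Col4a1, chr8:11312555-11312854 on the plus strand for Col4a2, chr4:137468553-137468852 on the plus strand for Hspg2 and chrX:73483351-73483650 on the plus strand for Bgn.
Col4a1: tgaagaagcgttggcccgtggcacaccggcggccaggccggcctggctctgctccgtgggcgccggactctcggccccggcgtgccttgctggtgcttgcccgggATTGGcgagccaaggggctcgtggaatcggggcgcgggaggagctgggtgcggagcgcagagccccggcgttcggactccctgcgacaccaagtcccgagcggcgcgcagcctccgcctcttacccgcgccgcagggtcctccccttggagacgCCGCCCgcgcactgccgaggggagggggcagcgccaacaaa
Col4a2: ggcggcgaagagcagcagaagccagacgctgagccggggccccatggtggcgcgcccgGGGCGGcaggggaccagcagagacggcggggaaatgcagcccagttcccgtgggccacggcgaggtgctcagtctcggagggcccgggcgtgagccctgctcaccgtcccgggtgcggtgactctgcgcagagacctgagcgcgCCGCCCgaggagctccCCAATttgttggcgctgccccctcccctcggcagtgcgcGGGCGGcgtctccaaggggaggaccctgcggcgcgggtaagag
Hspg2: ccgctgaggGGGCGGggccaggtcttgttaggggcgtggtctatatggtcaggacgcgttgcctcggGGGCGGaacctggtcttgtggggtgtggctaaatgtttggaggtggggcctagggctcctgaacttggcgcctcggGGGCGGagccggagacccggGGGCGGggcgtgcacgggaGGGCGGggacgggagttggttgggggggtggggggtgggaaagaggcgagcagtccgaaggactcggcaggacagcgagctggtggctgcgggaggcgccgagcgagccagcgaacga
Bgn: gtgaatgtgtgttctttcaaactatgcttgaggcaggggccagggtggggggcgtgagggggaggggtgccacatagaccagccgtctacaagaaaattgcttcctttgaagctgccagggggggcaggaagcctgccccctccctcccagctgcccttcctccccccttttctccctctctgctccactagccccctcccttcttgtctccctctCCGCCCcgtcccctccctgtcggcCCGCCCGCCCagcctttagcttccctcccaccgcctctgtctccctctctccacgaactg

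The Col4a1 and Col4a2 windows share 78 bases, and their annotated starts lie 21 bases apart. Col4a1 holds 1 GGGCGG match and 1 CCAAT match, Col4a2 holds 3 and 1, Hspg2 holds 5 and 0, and Bgn holds 3 and 0. Of the matches in Bgn, 2 overlap each other. The GGGCGG match of Col4a1 lies in the shared bases and is also counted for Col4a2. Windows were found for 34 of the 47 genes. GGGCGG on either strand was in 23 of the 34 (67.6%), against 64.3% of 10782 promoters of tested genes, and CCAAT in 13 (38.2%), against 38.6%. These letters were therefore about as common in the matrix gene windows as in those of the other tested genes.

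Levels in the saline libraries spanned a wide range, with Sparc far above every other member. Sparc, a collagen-binding secreted protein that astrocytes and endothelial cells make in quantity, was at 480 ± 39.9 RPKM in saline, 484 ± 6.24 in the control ASO group and 487 ± 23.9 in the C9orf72 ASO group (mean ± SD, n = 3 each). It held 68.6% to 74.7% of the summed RPKM of the 47 genes in each library. A saline mean of at least 10 RPKM was reached by 4 genes, 32 lay from 1 to 10 and 11 lay under 1. The median over the 47 was 2.01 RPKM, against 8.06 over all genes tested. After Sparc and Col4a3bp (28.2 RPKM) came Col11a1 (16.7), Col11a2 (12.7) and Col23a1 (10.0), followed by Col16a1, Bgn, Nid1, Lamc1 and Col4a2 between 8.07 and 9.91. At the lower end stood Nid2 (0.683), Col8a1 (0.669), Lum (0.663), Col7a1 (0.64) and Col3a1 (0.596).

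**Figure D1:**
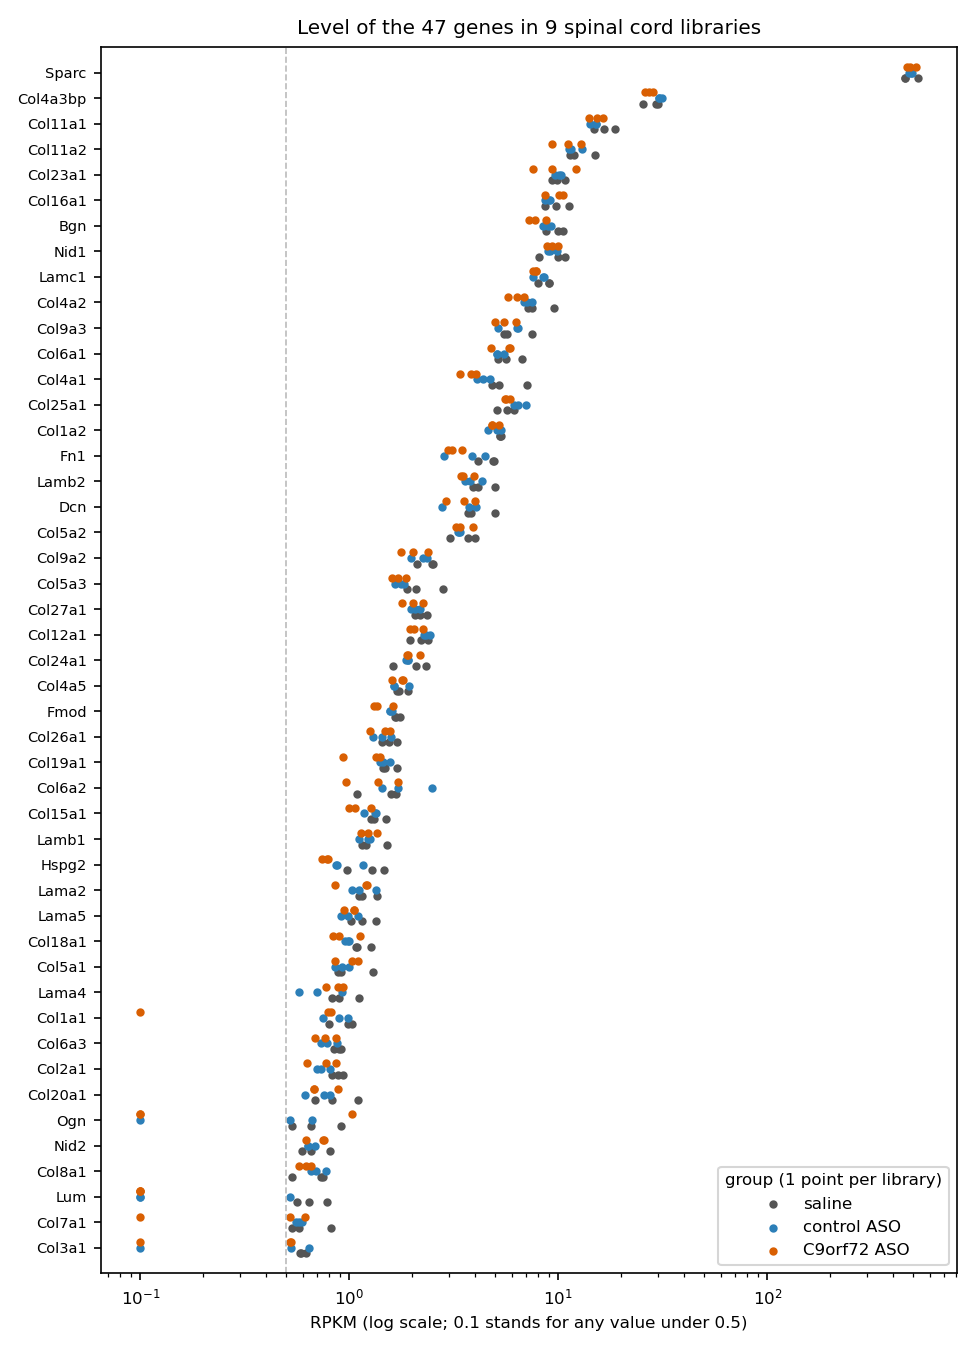
RPKM (log axis) of the 47 matrix genes in each of the 9 libraries, 1 point per library, coloured by group and ordered by the saline mean; the dashed line marks 0.5 RPKM, and points at 0.1 are values under it. Sparc stands alone at 457 RPKM or more, most genes lie from 1 to 10 RPKM, and only Lum, Ogn, Col3a1, Col1a1 and Col7a1 have points at 0.1.

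The fibrillar collagens, which form the ropes of connective tissue, numbered 11. The main pair was unequal. Col1a2 was at 4.62 to 5.31 RPKM over the 9 libraries, while Col1a1, the chain that enters the collagen I trimer in excess, was at 0.746 to 1.03 in 8 libraries and at the floor in C9orf72 ASO replicate 3. The ratio of Col1a2 to Col1a1 was 5.18 to 6.54 in the 8 libraries where both were above the floor. Col3a1, which forms thin reticular fibrils, was at 0.523 to 0.638 RPKM in 7 libraries and at the floor in control ASO replicate 3 and C9orf72 ASO replicate 3. The collagen V chains, which seed fibrils, ran from Col5a2 (3.04 to 3.98 RPKM) and Col5a3 (1.61 to 2.79) to Col5a1 (0.851 to 1.3). Col11a1 (14 to 18.7) and Col11a2 (9.34 to 15) were the most abundant fibrillar chains, with Col24a1 at 1.62 to 2.33, Col27a1 at 1.8 to 2.35 and Col2a1, the cartilage collagen, at 0.631 to 0.931.

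Among the network collagens, Col4a2 and Col4a1 were followed by Col4a5, another chain of basement membranes, at 1.6 to 1.93 RPKM and Col8a1, a short-chain collagen of vessel walls, at 0.529 to 0.771. Collagen VI, which forms beaded microfilaments beside basement membranes, was led by Col6a1 at 4.77 to 6.72 RPKM, with Col6a2 at 0.965 to 2.48 and Col6a3 at 0.683 to 0.915. The ratio of Col6a1 to Col6a2 ran from 2.21 in control ASO replicate 1 to 4.95 in C9orf72 ASO replicate 2. Col7a1, the anchoring fibril collagen, was at 0.522 to 0.818 RPKM in 8 libraries and at the floor in C9orf72 ASO replicate 2. Collagens that attach to fibrils or were listed with them were Col16a1 (8.64 to 11.3), Col9a3 (4.99 to 7.45), Col9a2 (1.76 to 2.5), Col12a1 (1.94 to 2.44), Col19a1 (0.937 to 1.69), Col26a1 (1.26 to 1.68) and Col20a1 (0.613 to 1.09). The basement membrane collagens whose ends release antiangiogenic fragments, Col15a1 and Col18a1, were at 0.991 to 1.5 and 0.84 to 1.27 RPKM, and the membrane-spanning Col23a1 and Col25a1 at 7.54 to 12.1 and 5.08 to 6.99.

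Laminins are trimers of an alpha, a beta and a gamma chain. Lamc1, the common gamma chain, was at 7.56 to 9.02 RPKM, which was 2.49 to 3.14 times the sum of Lama2, Lama4 and Lama5 and 1.43 to 1.72 times the sum of Lamb1 and Lamb2. Lama2, the alpha chain of the glial side and of muscle, was at 0.852 to 1.36 RPKM, Lama4, of endothelium, at 0.572 to 1.12, and Lama5, also of endothelium, at 0.911 to 1.35. Their ranges overlapped, so that no order among the alpha chains held beyond the spread. Lamb2 (3.43 to 4.98) was above Lamb1 (1.11 to 1.51) in every library. Of the linkers, Nid1 was at 8.05 to 10.8 RPKM and Nid2 at 0.592 to 0.805. Dcn, the proteoglycan decorin, was at 2.77 to 5 RPKM, and Ogn, osteoglycin, was at 0.518 to 1.04 in 6 libraries and at the floor in control ASO replicate 3 and C9orf72 ASO replicates 2 and 3.

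The first comparison asked how the matrix genes stood after the C9orf72 ASO against the control ASO, the design's comparison for lowered C9orf72. Because each ASO group had its own oligonucleotide sequence, lowered C9orf72 and other effects of either sequence cannot be told apart. No matrix gene was called: limma on log2(RPKM + 0.1), with Benjamini-Hochberg adjustment over 14430 genes, called 0 of 47, against 10 of all genes tested (0.0693%). The smallest adjusted p of a member was 0.298. At an unadjusted p under 0.05, 2 of 47 (4.26%) were lower and 0 higher, against 7.71% lower and 6.39% higher over all genes tested. The log2 fold change was below 0 for 33 of 47, against 54.1% of all genes tested, and the median was -0.08, against -0.01. Without C9orf72 ASO replicate 2, 25 of 47 lay below 0 and the median was -0.02. With the trends on transcript length and GC content removed, that median was 0.04 and 20 of 47 lay below 0.

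Both genes at an unadjusted p under 0.05 had control ASO libraries above those of both other groups. Col25a1, a membrane collagen of neurons found in amyloid plaques, was at 6.44, 6.17 and 6.99 RPKM in the control ASO libraries and at 5.53, 5.87 and 5.61 in the C9orf72 ASO libraries. The saline libraries were at 5.08, 6.14 and 5.7, below every control ASO library and overlapping the C9orf72 ASO libraries. Its log2 fold change against the control ASO was -0.20 (SE 0.08, adjusted p = 0.301). Col4a3bp, the ceramide carrier, was at 31.4, 30.4 and 30.4 RPKM in the control ASO libraries, at 27.2, 28.4 and 25.9 in the C9orf72 ASO libraries and at 25.4, 29.8 and 29.3 in the saline libraries. Its log2 fold change against the control ASO was -0.18 (SE 0.07, adjusted p = 0.298).

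The libraries of the 2 ASO groups did not overlap for 8 members, all lower with the C9orf72 ASO (17.0%, against 11.8% of all genes tested), and no member was higher without overlap (10.1% of all genes tested). These were Col4a1, Col4a2, Hspg2, Col8a1, Col12a1, Col19a1, Col25a1 and Col4a3bp. Sparc, the most abundant member, had a log2 fold change of 0.01 with a 95% interval of -0.15 to 0.17.

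**Figure D2:**
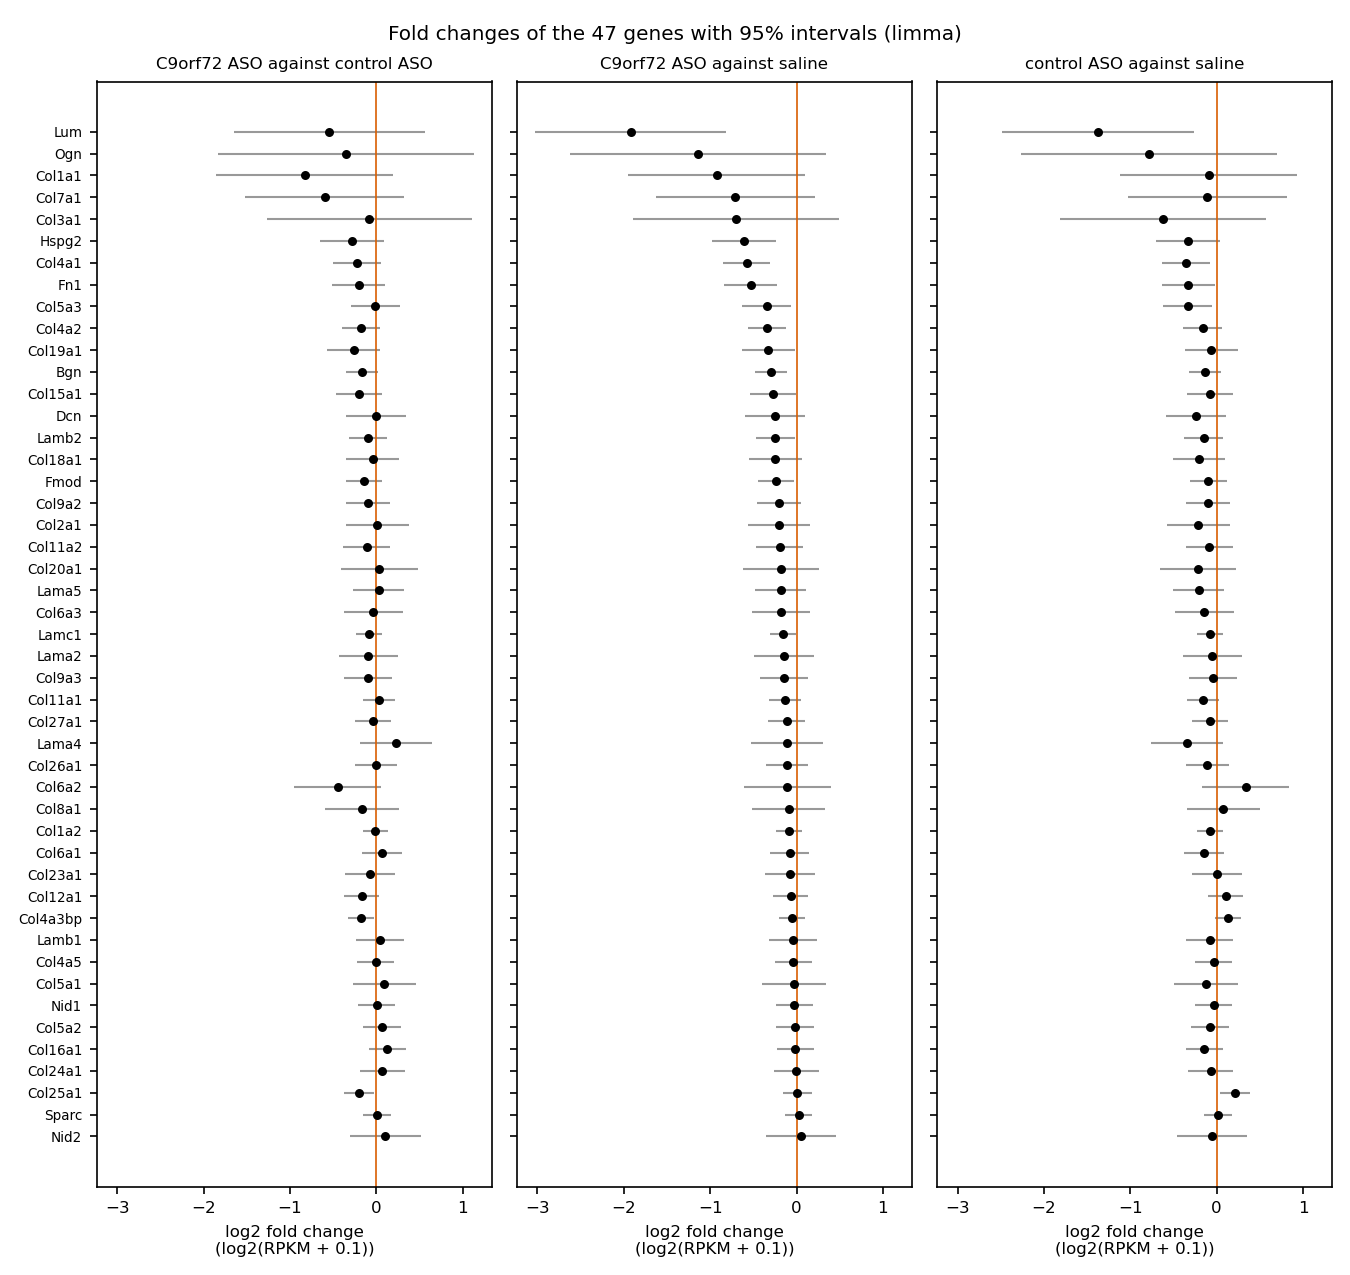
Log2 fold change on the log2(RPKM + 0.1) scale (points) with the 95% interval from limma (lines) for the 47 genes in 3 comparisons, ordered by the value against saline. The wide lines at the top belong to the 5 genes with values at the floor; most points of the middle panel lie left of 0, and the middle panel shares its C9orf72 ASO libraries with the left one and its saline libraries with the right one.

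Against saline, nearly all matrix genes had a lower mean in the C9orf72 ASO libraries, by small amounts and without a call. The log2 fold change was below 0 for 44 of 47, or 43 of 46 without Lum, against 58.7% of all genes tested. The median was -0.16, against -0.03. Again limma called 0 of 47, against 10 of 14430 (0.0693%), and the smallest adjusted p of a member was 0.12. At an unadjusted p under 0.05, 12 members (25.5%) were lower and 0 higher, against 10.2% lower and 3.79% higher over all genes tested. Without Lum, whose place among them the level rule fixed, they were 11 of 46 (23.9%). Without C9orf72 ASO replicate 2 they were 8 of 47 (17.0%, against 6.18% of all genes tested), or 7 of 46 without Lum (15.2%). The libraries did not overlap for 12 members, all lower (25.5%, against 12.4%), and for 0 that were higher (5.61% of all genes tested). Without Lum the lower ones were 11 of 46 (23.9%). With the trends on transcript length and GC content removed, the median was -0.0047 and 24 of 47 lay below 0, or 23 of 46 without Lum.

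Of the basement membrane genes, Col4a1, Col4a2 and Hspg2 were among the lowest against saline. Others of that sheet lay nearer 0: Col4a5 at -0.04, Nid1 at -0.03, Nid2 at 0.05 and Lamb1 at -0.04. Lama2 was at -0.15, Lama4 at -0.11 and Lama5 at -0.18, and none of these others was at an unadjusted p under 0.05. Col4a1 was at 7.05, 5.2 and 4.82 RPKM in saline, 4.69, 4.34 and 4.09 with the control ASO and 3.8, 3.37 and 4.03 with the C9orf72 ASO. The 3 groups did not overlap, saline being highest and the C9orf72 ASO lowest. Its log2 fold change was -0.58 (SE 0.12, limma adjusted p = 0.12) against saline and -0.22 (SE 0.12, adjusted p = 0.438) relative to the control ASO. Without saline replicate 1 the value against saline was -0.42. Col4a2 was at 9.54, 7.19 and 7.48 RPKM in saline, 7.5, 7.07 and 6.86 with the control ASO and 6.31, 5.77 and 6.84 with the C9orf72 ASO. The C9orf72 ASO libraries were below all others, and saline and control ASO overlapped. Its log2 fold change was -0.34 (SE 0.10, adjusted p = 0.223) against saline and -0.18 (SE 0.10, adjusted p = 0.444) relative to the control ASO. Hspg2, perlecan, was at 1.46, 1.29 and 0.976 RPKM in saline, 1.16, 0.873 and 0.868 with the control ASO and 0.783, 0.74 and 0.792 with the C9orf72 ASO. The C9orf72 ASO libraries again lay below the other 6. Its log2 fold change against saline was -0.61 (SE 0.17, adjusted p = 0.207).

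The chains of the collagen IV pair did not keep 1 ratio. Col4a2 to Col4a1 was 1.35, 1.38 and 1.55 in saline, 1.60, 1.63 and 1.68 with the control ASO and 1.66, 1.71 and 1.70 with the C9orf72 ASO. Every saline library was below every ASO library, and the ASO groups overlapped. The ratio was looked at with the values known, and with 3 libraries against 3 an exact permutation test cannot go below 0.1, so that it is given without a test.

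The laminin chains at an unadjusted p under 0.05 against saline were Lamb2 and Lamc1. Lamc1 was at 9.02, 9 and 8.01 RPKM in saline, 8.49, 8.55 and 7.59 with the control ASO and 7.83, 7.85 and 7.56 with the C9orf72 ASO. Its C9orf72 ASO libraries were below the saline libraries and overlapped the control ASO libraries, with a log2 fold change against saline of -0.16 (SE 0.07, limma adjusted p = 0.334). Lamb2 was at 4.98, 3.92 and 4.12 RPKM in saline, 4.31, 3.77 and 3.58 with the control ASO and 3.51, 3.43 and 3.94 with the C9orf72 ASO. These groups overlapped, with a log2 fold change against saline of -0.25 (SE 0.10, adjusted p = 0.316). Of the antiangiogenic pair, Col15a1 was at 1.5, 1.27 and 1.31 RPKM in saline, 1.33, 1.34 and 1.18 with the control ASO and 1.27, 0.991 and 1.06 with the C9orf72 ASO (log2 fold change against saline -0.28, SE 0.12, adjusted p = 0.345). The saline and C9orf72 ASO libraries of Col15a1 touched at 1.27 RPKM.

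Fibronectin and several proteoglycans also lay below saline. Fn1, the adhesive glycoprotein fibronectin, was at 4.87, 4.9 and 4.15 RPKM in saline, 3.87, 4.47 and 2.85 with the control ASO and 3.1, 2.97 and 3.46 with the C9orf72 ASO. The C9orf72 ASO libraries were below all saline libraries, while control ASO replicate 3 was the lowest of the 9. Its log2 fold change against saline was -0.53 (SE 0.14, limma adjusted p = 0.19). Bgn, biglycan, was at 10.6, 9.94 and 8.73 RPKM in saline, 9.25, 8.9 and 8.44 with the control ASO and 7.76, 7.24 and 8.68 with the C9orf72 ASO. Saline and C9orf72 ASO were separated by the small gap between 8.68 and 8.73, and the log2 fold change against saline was -0.30 (SE 0.08, adjusted p = 0.208). Fmod, fibromodulin, was at 1.75, 1.67 and 1.66 RPKM in saline, 1.59, 1.57 and 1.57 with the control ASO and 1.61, 1.35 and 1.31 with the C9orf72 ASO. Both ASO groups were below every saline library, and the log2 fold change of the C9orf72 ASO against saline was -0.24 (SE 0.10, adjusted p = 0.306).

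Lum, lumican, lay at the limit of the table. It was at 0.785, 0.563 and 0.64 RPKM in saline, at 0.521 in control ASO replicate 1 and at the floor in the other 5 libraries. Its C9orf72 ASO level was at least 1.33-fold lower than saline, taking 0.5 RPKM for each floor value. Since Lum entered the fit through the saline libraries, its place among the members lower than saline is not read as a result. The counts of lower members against saline, other than the ranges over alternatives, are also given for the other 46 genes.

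Among the other collagens at an unadjusted p under 0.05 against saline were Col5a3 and Col19a1. Col5a3, a fibril-seeding chain, was at 2.79, 1.88 and 2.09 RPKM in saline, 1.65, 1.82 and 1.76 with the control ASO and 1.72, 1.61 and 1.87 with the C9orf72 ASO. Both ASO groups lay below saline and overlapped each other, with log2 fold changes against saline of -0.35 (SE 0.13, limma adjusted p = 0.274) for the C9orf72 ASO and -0.33 (SE 0.13, adjusted p = 0.794) for the control ASO. Col19a1, a fibril-associated collagen that some neurons make, was at 1.69, 1.46 and 1.49 RPKM in saline, 1.57, 1.4 and 1.45 with the control ASO and 1.4, 1.35 and 0.937 with the C9orf72 ASO. C9orf72 ASO replicate 3 stood below the rest, and the log2 fold change against saline was -0.33 (SE 0.14, adjusted p = 0.33).

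**Figure D3:**
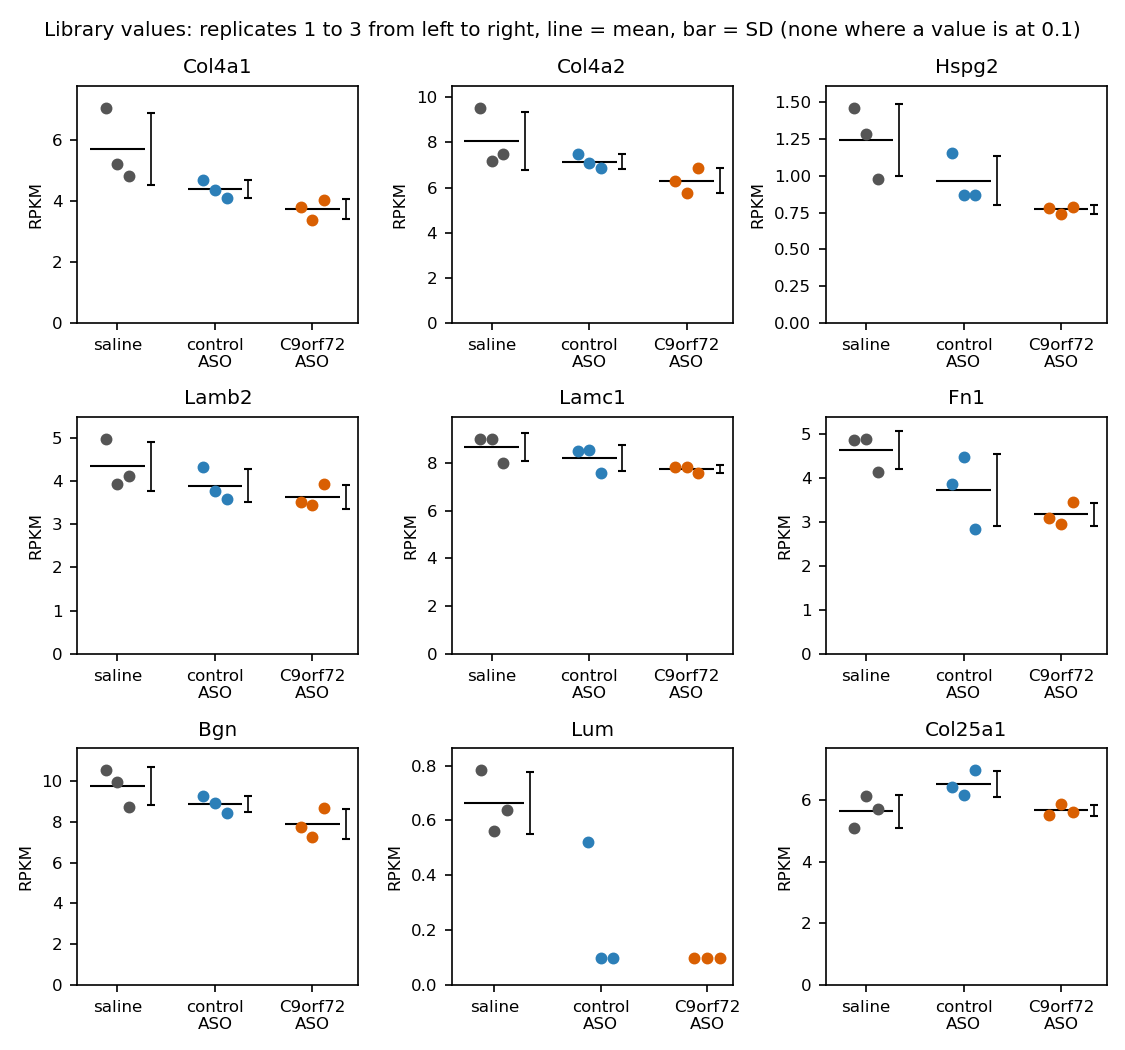
RPKM of 9 matrix genes in each library (points, replicates 1 to 3 from left to right in each group), with the group mean (line) and SD (bar) where no value is at 0.1. For Col4a1, Col4a2 and Hspg2 the C9orf72 ASO points lie below all others, for Col25a1 the control ASO points lie above all others, and for Lum only the saline libraries and 1 control ASO library are above 0.1.

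The control ASO against saline gives the background of an injection of this control oligonucleotide. It called 0 of 47 matrix genes by limma, against 1 of 14430 genes (0.00693%), and the smallest adjusted p of a member was 0.794. At an unadjusted p under 0.05, 4 members were lower (8.51%, against 3.98% of all genes tested), namely Lum, Col4a1, Col5a3 and Fn1, and Col25a1 was higher (1.37% of all genes tested). Without Lum, 3 of 46 were lower (6.52%). The log2 fold change was below 0 for 40 of 47, or 39 of 46 without Lum, against 57.4% of all genes tested. The median was -0.10, against -0.02. The libraries did not overlap for 6 members that were lower (12.8%, against 7.15%, or 5 of 46 without Lum, 10.9%) and for 2 that were higher, Col25a1 and Col4a3bp (4.26%, against 3.16%). Col4a1 was at -0.36 (SE 0.12, adjusted p = 0.794) and Fn1 at -0.33 (SE 0.14, adjusted p = 0.794), beside -0.58 and -0.53 for the C9orf72 ASO against the same saline libraries.

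The intervals were widest for the genes at the floor. The median half-width of the 95% interval of a log2 fold change was 0.28, from 0.15 to 1.48 over the 47 genes and at most 0.50 for the 42 genes at the floor in no library. Over those 42 the medians were -0.04 against the control ASO, -0.14 against saline and -0.09 for control ASO against saline.

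The comparisons with saline were also read without saline replicate 1, the library highest for most matrix genes. Then 6 members were at an unadjusted p under 0.05 for the C9orf72 ASO against saline (12.8%, against 7.55% of all genes tested): Col4a1, Col4a2, Hspg2, Fn1, Bgn and Lum. Without Lum they were 5 of 46 (10.9%). The median was then -0.12, with 37 of 47 below 0, or 36 of 46 without Lum. The libraries did not overlap for 14 members that were lower (29.8%, against 17.5%), or for 13 of 46 without Lum (28.3%). For the control ASO against saline, no member was then at an unadjusted p under 0.05 (1.18% lower and 0.925% higher over all genes tested), and the median was -0.05. Without control ASO replicate 3 that comparison had 1 member at an unadjusted p under 0.05 in place of 5, which was lower (2.13%, against 2.04% of all genes tested).

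Markers of vessel cells also stood below saline. All 18 endothelial markers lay below 0 for the C9orf72 ASO against saline, with 14 at an unadjusted p under 0.05, none called and a median log2 fold change of -0.42, against 58.7% below 0, 10.2% lower at that p and a median of -0.03 over all genes tested. For the control ASO against saline the same 18 also lay below 0, with 7 at an unadjusted p under 0.05 and a median of -0.25, against 57.4%, 3.98% and -0.02 over all genes tested. Their summed level was 179 to 209 RPKM in saline, 143 to 182 with the control ASO and 147 to 164 with the C9orf72 ASO, and the defining markers Cldn5 (3.68 to 8.18 RPKM) and Flt1 (7.27 to 13.8) were above the floor in every library. Of 12 tested markers of pericytes and smooth muscle, 11 lay below 0 against saline, with 10 at an unadjusted p under 0.05, none called and a median of -0.38. For the control ASO against saline, 11 of the 12 lay below 0, with 5 at an unadjusted p under 0.05 and a median of -0.22. Their sums were 69.9 to 89.7, 52.9 to 67.0 and 47.8 to 53.3 RPKM. Without saline replicate 1 the medians against saline were -0.34 for endothelium and -0.30 for pericytes and smooth muscle. The part of these cells in the matrix gene values was not tested, and in whole tissue fewer cells of a type and less RNA per cell cannot be told apart.

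Markers of meningeal and perivascular fibroblasts, cells that lay down fibrillar collagens, ranged from the floor to 115 RPKM, the highest being Aldh1a1. Which cells made the fibrillar collagen RNA in these libraries was not tested. Of 24 markers that are not themselves matrix members, 16 were in the table and 12 were tested. Slc6a13 was above the floor in 2 libraries, Islr in 2, Aldh1a2 in 1 and Crabp2 in 1, whereas Foxc1 was at 0.851 to 1.13 RPKM in all 9. The median over the 12 was -0.04 for the C9orf72 ASO against saline, 0.04 against the control ASO and -0.12 for control ASO against saline, none called. At an unadjusted p under 0.05 against saline, 3 of the 12 were lower (25.0%) and 1 higher, against 10.2% and 3.79% of all genes tested. Against the control ASO, 0 were lower and 3 higher at that p, against 7.71% and 6.39%. For control ASO against saline none was. The sums were 133 to 144 RPKM in saline, 131 to 147 with the control ASO and 145 to 155 with the C9orf72 ASO, of which Aldh1a1, which other cells also make, held 93.1 to 115 RPKM.

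**Figure D4:**
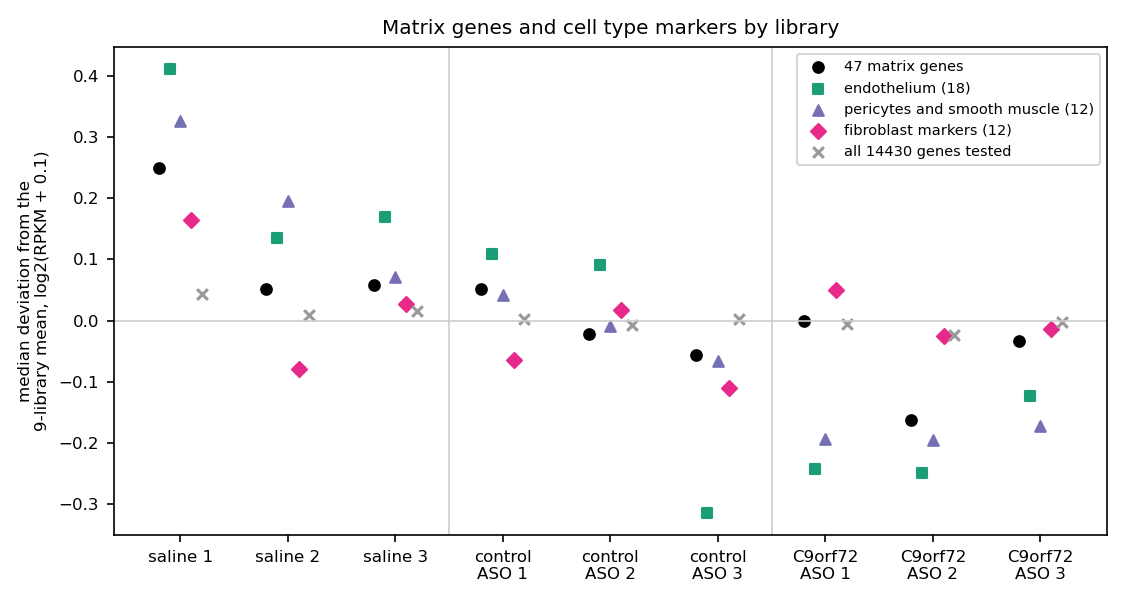
Median deviation of each gene group from its mean over the 9 libraries, on the log2(RPKM + 0.1) scale, for the 47 matrix genes, 3 marker lists and all 14430 genes tested, by library. All 5 sets are highest in saline replicate 1 (matrix genes 0.25, endothelium 0.41, fibroblast markers 0.16), both vessel lists are below 0 in the 3 C9orf72 ASO libraries, and the endothelial markers are lowest in control ASO replicate 3.

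Transcript length moved with the fold changes over all genes. The median longest transcript of the 47 genes was 5.66 kilobases, against 3.40 over all genes tested, and 29 of 47 were in the longest 20% of 13970 genes with a length and 0 in the shortest 20%. Median GC content was 54.6%, against 49.7%. For the C9orf72 ASO against the control ASO, the median log2 fold change of all genes went from 0.08 in the shortest 20% to -0.09 in the longest 20%, and against saline from 0.02 to -0.05. For the control ASO against saline it went the other way, from -0.07 to 0.03. With the trends on length and GC content removed from each library, the median of the matrix genes against saline was -0.0047. Below 0 lay 24 of 47, or 23 of 46 without Lum. Then 5 members were lower at an unadjusted p under 0.05 (Col4a1, Fn1, Bgn, Lum and Col19a1; 10.6%, against 4.28% of all genes tested; 4 of 46 without Lum, 8.70%) and Col16a1 was higher. For the control ASO against saline the corrected median was -0.07, with 39 of 47 below 0, or 38 of 46 without Lum. For the C9orf72 ASO against saline under the correction, Col4a1 was at -0.38, Fn1 at -0.36, Bgn at -0.26 and Hspg2 at -0.29. The endothelial median in that comparison was -0.40 under the same correction. Both trends were removed together, and the part of length and of GC content in these changes was not tested.

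**Figure D5:**
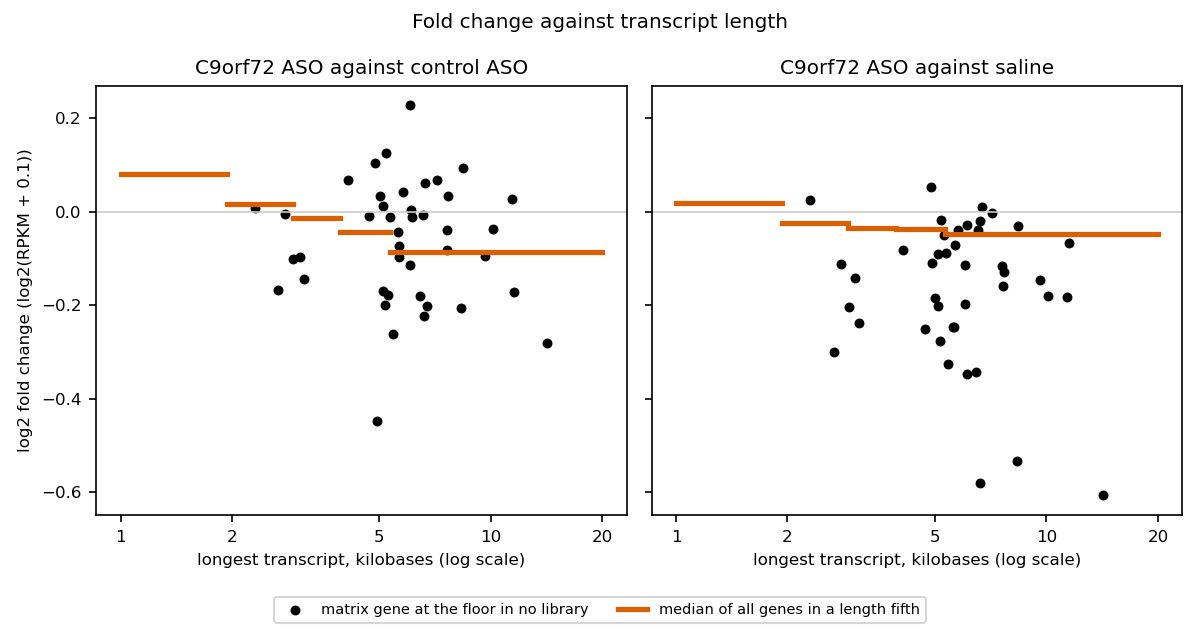
Log2 fold change (log2(RPKM + 0.1)) of the 42 matrix genes at the floor in no library against the length of their longest transcript (log axis), for the C9orf72 ASO against the control ASO and against saline. Orange lines are the medians of all genes in each 20% of the genes by transcript length, drawn between 1 and 20 kilobases; in the left panel they go from 0.08 to -0.09, and in the right panel Hspg2, Col4a1 and Fn1 lie lowest.

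The genes around the matrix members were mostly without calls. Of 24 tested enzymes that process collagen, none was called, and the medians were -0.06 against the control ASO and -0.11 against saline. P4ha2, a prolyl hydroxylase subunit that stabilises the collagen helix, was at 4.95, 5.38 and 4.96 RPKM with the control ASO and 4.3, 4.15 and 4.43 with the C9orf72 ASO, without overlap (log2 fold change -0.24, SE 0.07, limma adjusted p = 0.239). Plod2, a lysyl hydroxylase, was at -0.16 (adjusted p = 0.326). Of 20 tested receptors none was called, with Sdc4, a syndecan, at -0.22 (adjusted p = 0.346) and Itgb1, the common integrin beta chain of collagen and laminin receptors, at -0.13 (adjusted p = 0.359). Against saline, 6 of the 20 receptors (30.0%) and 2 of the 24 enzymes (8.33%) were lower at an unadjusted p under 0.05, and 0 higher. Over all genes tested, 10.2% were lower and 3.79% higher.

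None of 20 tested proteases and inhibitors was called either. Mmp14, the membrane-bound metalloprotease that cleaves fibrillar collagen, was at 7.99, 8.3 and 5.81 RPKM in saline, 6.27, 5.48 and 6.35 with the control ASO and 4.74, 4.09 and 4.44 with the C9orf72 ASO. The C9orf72 ASO libraries were below the other 6, with a log2 fold change of -0.44 (SE 0.12, limma adjusted p = 0.237) against the control ASO and -0.71 (SE 0.12, adjusted p = 0.0689) against saline. Timp4, a metalloprotease inhibitor, was at 0.18 (adjusted p = 0.267) against the control ASO.

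Among 24 tested genes of the TGF-beta pathway, a main driver of collagen transcription, and its targets, Ccn1 alone was called in both comparisons of the C9orf72 ASO. Ccn1, a secreted protein that binds integrins, was at 1.55, 1.57 and 2.04 RPKM in saline, 1.35, 1.91 and 2.16 with the control ASO and 4.07, 4.75 and 3.71 with the C9orf72 ASO. It rose by 1.18 on the log2 scale (SE 0.16, limma adjusted p = 0.022) against the control ASO and by 1.24 (SE 0.16, adjusted p = 0.0211) against saline. The call was lost in both comparisons without C9orf72 ASO replicate 1 (limma adjusted p = 0.132 and 0.103), without C9orf72 ASO replicate 2 (0.0772 and 0.103) and with limma run without trend and robust estimation (0.0759 and 0.0644). It was also lost against the control ASO without control ASO replicate 1 or 2 (limma adjusted p = 0.051 and 0.0704) and against saline without saline replicate 1 or 2 (0.0529 and 0.114), while the log2 fold change lay between 0.89 and 1.36 in every alternative run. Smad7, the pathway's inhibitor, was at -0.41 (adjusted p = 0.19) against the control ASO. The list's median was -0.10 against the control ASO. Of 11 tested genes of the neural matrix none was called, with Ncan, neurocan, at -0.30 (adjusted p = 0.199) and Hapln4, a link protein, at -0.17 (adjusted p = 0.314) against the control ASO. At an unadjusted p under 0.05, 3 of the 11 (27.3%) were lower and 0 higher against the control ASO, and likewise against saline. Over all genes tested, 7.71% and 10.2% were lower.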

How the data were processed

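Spinal cord RNA was sequenced in 9 strand-specific libraries, 3 per group, from total RNA extracted with Trizol, per the labels' protocols. Per the submitters' processing notes, cutadapt 1.2.1 removed adapters and GSNAP aligned the reads, with mm9 as the genome build. Both the counter and the annotation remain not given in the sources used here. No unit is named in the deposited file header, and the authors' values were read as RPKM: in genes of up to 350 bases, 66.7% to 75.9% of the values tested were within 0.1 of a whole read, which gave the depth. The 5160 values under 0.5 RPKM stand at 0.1.

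Symbols came from a reference table (14321 of 14831 gene IDs, 510 without a name). Groups were compared with limma 3.58.1 in R 4.3.3 (mean trend, robust estimation with statmod 1.5.0) on log2(RPKM + 0.1), 1 fit of 9 libraries, for the 14430 genes that reached 0.5 RPKM in 3 or more libraries (401 removed), at a Benjamini-Hochberg adjusted p under 0.05. The scale understates fold changes of low genes, and floor values overstate them. The fit was tested on simulated data. Lists of genes and tests, and the members, were chosen with earlier results of these data known. Genes were named by role, by level (highest and lowest 5), at the floor, and by p within each comparison and list. Ratios of chains, the per-library ranks and the genes whose libraries did not overlap were described with the values known. Transcript length and GC content are those of the longest GENCODE transcript of each gene, and promoters are from RefSeq GRCm38.p6. Since the reads were aligned to mm9, the only positions given are those of the RefSeq promoter windows. Alternatives changed the pseudocount, filter, scaling, limma setting, samples, floor, length and GC trends and each library in turn.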

Additional observations from a re-analysis of the deposited data

How the results depend on the processing

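No matrix gene was called by limma in any of the 3 comparisons under any alternative run; the smallest adjusted p of a member over them was 0.174 for the C9orf72 ASO against the control ASO, 0.0676 against saline and 0.172 for control ASO against saline. Over the same alternatives, 1 to 5, 5 to 13 and 0 to 7 members were lower at an unadjusted p under 0.05, beside 4.08% to 10.1%, 4.28% to 14.6% and 1.18% to 9.31% of all genes tested. Lum was not left out of these counts. With length and GC trends removed, the median over the 47 genes moved to 0.0375 against the control ASO and to -0.0047 against saline; the correction itself shifts long transcripts. Leaving out 1 library at a time gave medians from -0.09 to -0.02, from -0.20 to -0.11 and from -0.16 to -0.05 in the order above. That correction took the members below 0 from 33 to 20 of 47 against the control ASO and from 44 to 24 against saline. Single genes were followed only for members at an unadjusted p under 0.05 in a comparison, and for Sparc. Of these, Col5a3 (0.167), Lamb2 (0.0443), Lamc1 (0.0594) and Sparc (-0.0140) changed sign against the control ASO under the correction. Under quantile normalization Sparc did for control ASO against saline (-0.0300). Among the same genes, leaving out a library turned the sign of Col5a3 against the control ASO (-0.0661 to 0.0392). It also turned the sign of Sparc in the 3 comparisons (-0.0308 to 0.0372, -0.0146 to 0.0919 and -0.0180 to 0.0839) and of Col25a1 against saline (-0.0612 to 0.0729). The cause was not tested. No paired analysis was possible because the labels number no replicates across groups. For genes under 1 RPKM the floor at 0.5 RPKM limits what can be seen before depth does.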
